A study of Mus musculus with 15 samples.

Results

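The integrin and laminin genes were measured in mouse embryonic fibroblasts (MEFs) that were pushed towards skeletal muscle with synthetic MyoD mRNA, MyoD being a transcription factor that can turn fibroblasts into muscle cells. Members were the protein-coding genes whose symbols name an integrin α or β subunit or a laminin α, β or γ chain, which gave 37 of 35675 genes. They were 18 integrin α and 8 integrin β genes, and the others coded for laminin α, β and γ chains. All 37 passed the filter on low counts. Bulk RNA-seq was available for 15 libraries, 3 in each of 5 conditions. The same 3 primary MEF lines of genotype Tg:Pax7-nGFP/C57BL6;DBA2, each grown from its own embryo, were used in every condition. MyoD + F/R/C + CP cultures received 4 transfections of MyoD mRNA, the decoy interferon receptor B18R, forskolin (F), RepSox (R), CHIR99210 (C) and the JAK inhibitor CP690550 (CP). The kinases blocked by RepSox and CHIR99210 are the TGF-β type I receptor and GSK3, and forskolin activates adenylyl cyclase. MyoD + F/R/C + SP cultures had the JNK inhibitor SP600125 (SP) in place of CP, and MyoD + F/R/C cultures had neither inhibitor. The +MyoD cultures had the mRNA and B18R with no small molecule. MEFs were neither transfected nor given B18R and stayed in the same reprogramming medium (iMPC medium, named for induced myogenic progenitor cells). The labels give day 10 for all 15 cultures. Transfection, B18R and MyoD therefore cannot be told apart in the comparison of +MyoD with MEFs.

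Integrins are receptors that pair an α with a β subunit and tie the matrix outside a cell to the actin cytoskeleton inside it. Laminins are basement membrane proteins made of an α, a β and a γ chain, and the α chain decides which receptor binds. Muscle fibres are known for a basement membrane with the Lama2 chain, which is held by dystroglycan and by the integrin of Itga7 and Itgb1, while fibroblasts rely more on receptors for fibronectin and collagen. Loss of Lama2 or Itga7 causes muscle disease in mice and in humans.

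The libraries held 29393872 to 41885769 estimated counts. Levels are given as TPM, a share of all transcripts that is corrected for their length, summed per gene. Fold changes are given as log2FC with its standard error (SE) from edgeR's quasi-likelihood test on the summed counts. A gene was called when the adjusted p was at most 0.05 and the log2FC was over 0.5 in size. A list of 10 skeletal muscle markers summed to 4093 to 7547 TPM in MyoD + F/R/C, 1405 to 1638 TPM in +MyoD and 62.1 to 93.5 TPM in MEFs. A list of 10 fibroblast markers summed to 8214 to 12280.2 TPM in MyoD + F/R/C, 5820.0 to 15596 TPM in +MyoD and 1338 to 1692 TPM in MEFs. The cultures were mixtures, so that fewer cells of a type and less RNA per cell cannot be told apart. The 3 +MyoD libraries differed most among themselves, with a biological coefficient of variation of 0.488, against 0.214 in MEFs. In +MyoD, MEF line 1 stood apart from lines 2 and 3 for Lama4, Lama5 and Itga6.

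The integrin and laminin genes changed in both directions when MyoD mRNA was given. In +MyoD against MEFs, 16 of 37 members were higher and 8 were lower, beside 22.8% of 19331 genes tested called higher and 18% called lower. The median log2FC of the members was 0.97, beside 0.12 over all genes tested. In MyoD + F/R/C against +MyoD, 6 members were higher and 11 lower, beside 10.9% and 8.39% of all genes, with a median log2FC of -0.07 for the members and 0.03 for all genes. Fitted on those 6 libraries alone, the counts were 2 higher and 8 lower, and the share over all genes in that fit was not computed. In MyoD + F/R/C against MEFs, 18 members were higher and 9 lower, beside 26.6% and 21.6% of all genes, and the medians were 0.95 for the members and 0.19 for all genes. These 3 comparisons share libraries and are not independent of each other.

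**Figure D1:**
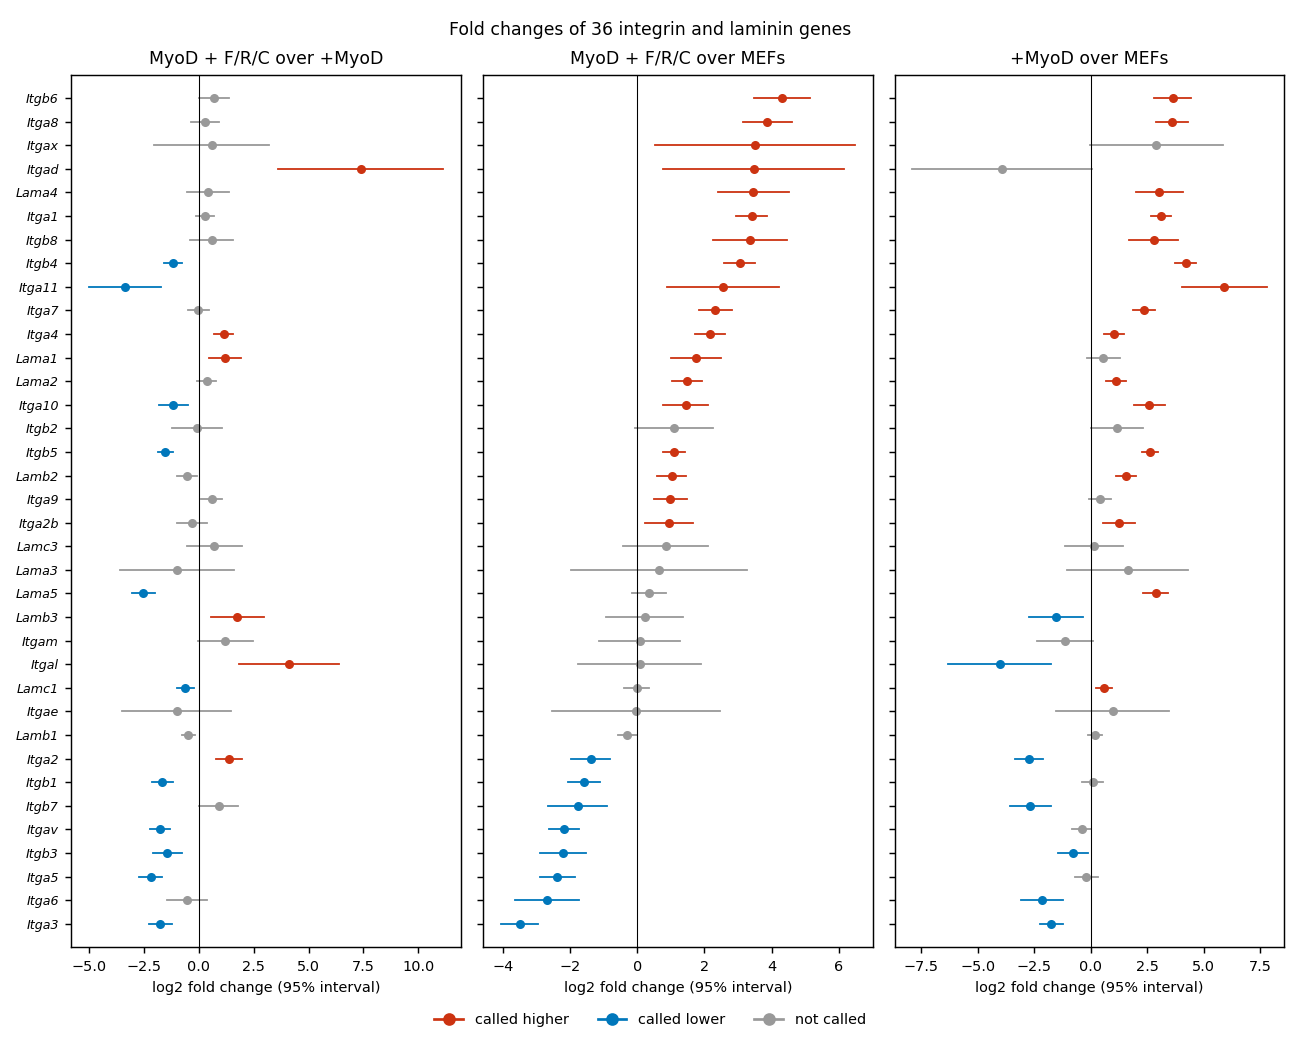
Each panel gives the log2 fold change (x axis) of 36 genes (y axis, in the order of the middle panel) with its 95% interval from the edgeR fit of all 15 libraries, in red or blue where called. Itga3 lies at -3.50 and Itgb6 at 4.31 in MyoD + F/R/C over MEFs, and the fitted value of Itgad over +MyoD depends on the prior count, since all 3 +MyoD libraries were at 0.

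Among the laminin-binding integrin α subunits, the cultures moved to Itga7, and Itga6 and Itga3 fell. Itga7, the muscle laminin receptor, was at 102, 142 and 135 TPM in MyoD + F/R/C (MEF lines 1, 2 and 3 in this order, as for all values given per library), 77.4, 119.8 and 97.2 TPM in +MyoD and 14.96, 14.5 and 18.8 TPM in MEFs. All 6 transfected libraries lay above the 3 MEFs, by log2FC 2.33, SE 0.23, adjusted p = 9.29e-07 for MyoD + F/R/C and log2FC 2.36, SE 0.23, adjusted p = 1.17e-06 for +MyoD. F/R/C did not move the total of Itga7 detectably, with a 95% interval of -0.50 to 0.45 for the log2FC over +MyoD.

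Itga6, a laminin receptor of epithelia, nerve sheath and many progenitor cells, was at 53.8, 31.7 and 52.6 TPM in MyoD + F/R/C, 128, 33.1 and 42.5 TPM in +MyoD and 248, 263 and 247 TPM in MEFs. It was lower in each transfected library than in any MEF library, although +MyoD of line 1 kept about a middle level. The fall in +MyoD against MEFs (log2FC -2.15, SE 0.43, adjusted p = 0.000766) became -3.08 without that library, and MyoD + F/R/C was also lower than MEFs (log2FC -2.69, SE 0.44, adjusted p = 0.000105). Itga3, a laminin receptor of epithelial cells, fell in both steps, to 6.68, 3.65 and 6.89 TPM in MyoD + F/R/C and 27.1, 15.8 and 20.5 TPM in +MyoD, against 58.03, 52.7 and 55.7 TPM in MEFs. The log2FC was -1.76 for MyoD + F/R/C over +MyoD (SE 0.25, adjusted p = 0.000134) and -1.75 for +MyoD over MEFs (SE 0.24, adjusted p = 3.20e-05), and no pair of these 3 conditions overlapped.

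As a share of the summed TPM of Itga3, Itga6 and Itga7, Itga7 made up 62.8, 80.1 and 69.4% in MyoD + F/R/C, 33.3, 71.04 and 60.7% in +MyoD and 4.67, 4.38 and 5.86% in MEFs. Itga6 made up 26.03 ± 7.68% in MyoD + F/R/C, 33.7 ± 18.8% in +MyoD and 77.9 ± 1.54% in MEFs (SD, n = 3 each). Itga7 thus led in all 3 MyoD + F/R/C libraries and in +MyoD of lines 2 and 3, and Itga6 led in +MyoD of line 1 and in all MEFs. With 3 libraries in each group the exact permutation test cannot go below p = 0.10, so that no share comparison could pass 0.05, and shares that do not overlap are at this floor. The summed level of the class was 178 ± 15.9 TPM in MyoD + F/R/C, 187 ± 39.4 TPM in +MyoD and 324 ± 5.52 TPM in MEFs. A list of 8 epithelial markers was lower in the transfected cultures than in MEFs, as Itga6 and Itga3 were. Its sum was 30.02 to 53.6 TPM in MyoD + F/R/C, 25.3 to 53.7 TPM in +MyoD and 183 to 198 TPM in MEFs. The list did not follow Itga3 in MyoD + F/R/C over +MyoD, where 2 markers were called higher and 0 lower (median log2FC 1.11). In +MyoD against MEFs, 4 of its 6 tested markers were lower, most of the sum was Krt19 and Krt18, and Krt5, Krt14 and Cdh1 averaged 0.00684, 0.505 and 0.217 TPM in MEFs. Its part in the fall of Itga6 and Itga3 was not tested.

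**Figure D2:**
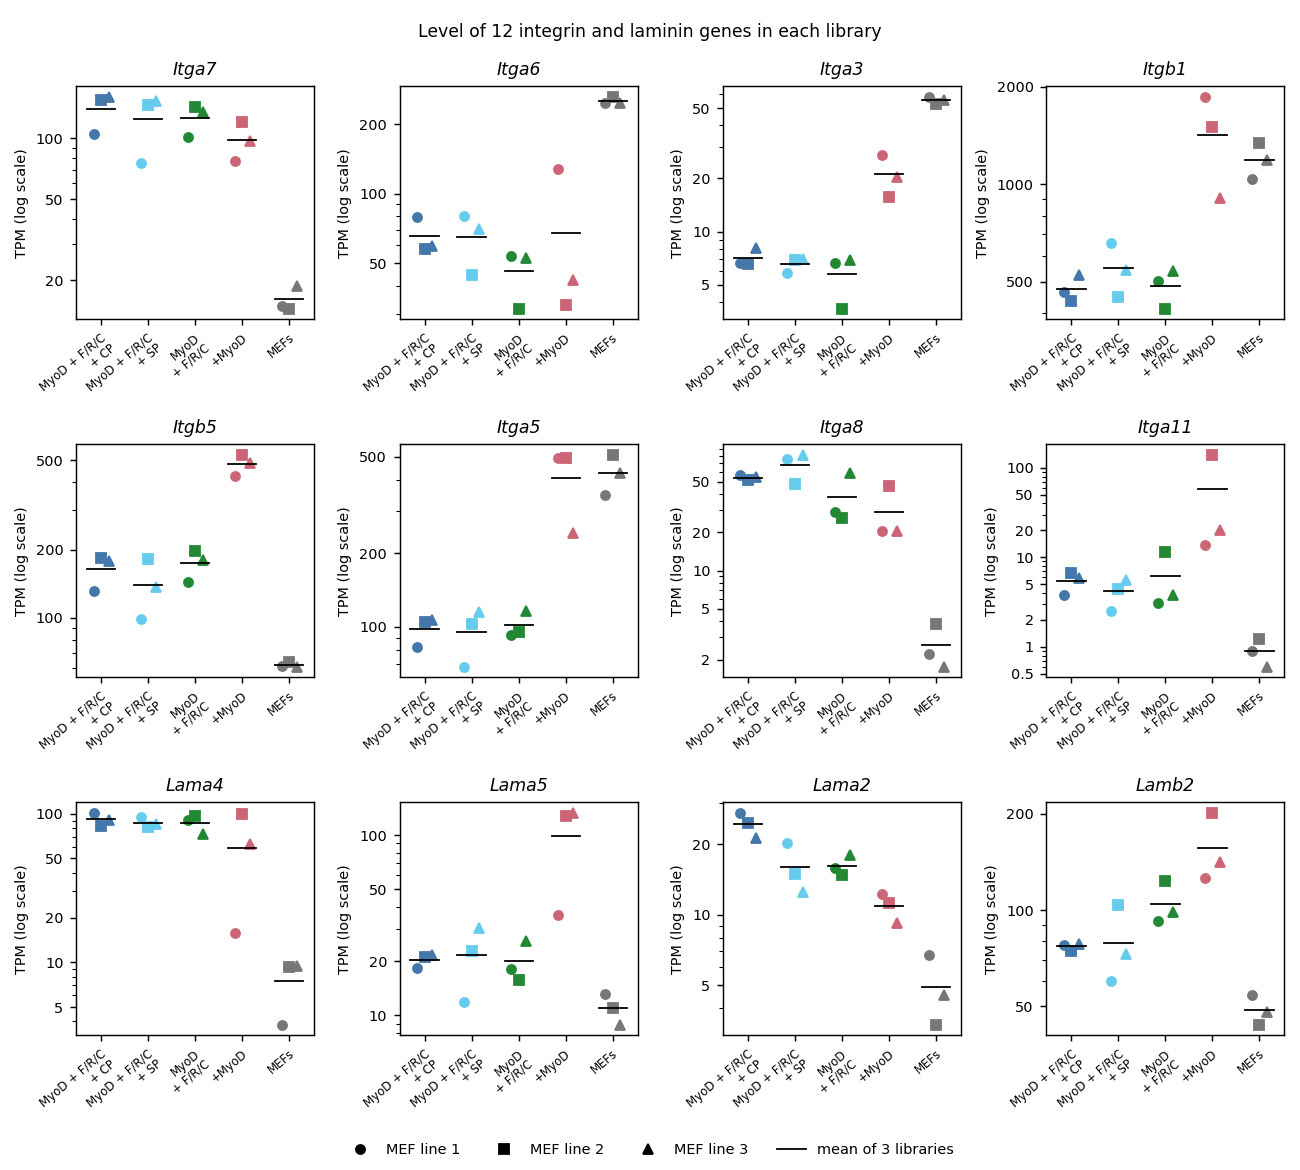
Level of 12 genes in TPM (y axis, log scale, range set for each gene) in each library of the 5 conditions (x axis), with a marker for each MEF line and a bar at the mean. Itga7 lies between 75.3 and 160.1 TPM in the 12 transfected libraries and between 14.5 and 18.8 TPM in MEFs, while +MyoD of line 1 stands apart in Itga6, Lama4 and Lama5.

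The transcripts of Itga7 changed with F/R/C where the total did not. Itga7 lies on chromosome 10 (GRCm38 10:128933818-128958282, plus strand), and its transcripts Itga7-202 and Itga7-201 differ in 1 exon. Itga7-202 carries the 132-base exon known as X1 (chr10:128941445-128941576) and Itga7-201 the 120-base exon X2 (chr10:128941822-128941941), both of which code for part of the extracellular head next to the ligand site. X2 is the form known from adult skeletal muscle, while myoblasts carry both. Further along, Itga7-204 holds a 113-base exon (chr10:128956611-128956723) that the other 2 transcripts skip, which changes the reading frame of the cytoplasmic tail and gives the A form known from differentiating muscle. Itgb1 lies on chromosome 8 (GRCm38 8:128685654-128733200, plus strand). Its transcript Itgb1-204 holds an 81-base exon (chr8:128726983-128727063) that the main transcript Itgb1-201 lacks and that gives the tail of β1D, the form of striated muscle. These 4 exons are shown because the muscle forms differ from the others by them alone or nearly so. The exon is in capitals, and the 12 bases on each side, in lower case, belong to the neighbouring exons of the same GENCODE M21 transcript.
Itga7 X1 exon: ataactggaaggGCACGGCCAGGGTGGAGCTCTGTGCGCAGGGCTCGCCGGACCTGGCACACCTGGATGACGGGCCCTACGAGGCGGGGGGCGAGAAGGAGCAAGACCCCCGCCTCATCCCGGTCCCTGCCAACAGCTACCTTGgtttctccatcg
Itga7 X2 exon: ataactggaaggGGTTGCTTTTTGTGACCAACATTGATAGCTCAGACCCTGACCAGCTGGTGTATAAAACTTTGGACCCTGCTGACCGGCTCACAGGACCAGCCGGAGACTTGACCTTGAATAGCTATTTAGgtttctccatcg
Itga7 A tail exon: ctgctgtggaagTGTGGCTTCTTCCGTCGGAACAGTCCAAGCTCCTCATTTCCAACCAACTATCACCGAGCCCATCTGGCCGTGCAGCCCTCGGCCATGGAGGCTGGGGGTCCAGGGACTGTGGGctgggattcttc
Itgb1 β1D exon: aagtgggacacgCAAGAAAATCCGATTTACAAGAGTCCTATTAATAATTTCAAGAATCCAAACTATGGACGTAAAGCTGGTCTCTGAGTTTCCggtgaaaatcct

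The X2 transcript Itga7-201 was at 53.2, 68.1 and 69.7 TPM in MyoD + F/R/C, 14.6, 16.7 and 19.4 TPM in +MyoD and 3.49, 2.52 and 4.61 TPM in MEFs. The X1 transcript Itga7-202 was at 11.8, 14.8 and 17.1 TPM in MyoD + F/R/C, 48.7, 88.4 and 56.2 TPM in +MyoD and 10.8, 10.9 and 12.1 TPM in MEFs. Thus +MyoD raised the X1 form with little change in the balance, while in MyoD + F/R/C the X2 form was high and X1 close to its level in MEFs. As a share of both, X2 was 81.9, 82.2 and 80.3% in MyoD + F/R/C, 23.1, 15.9 and 25.7% in +MyoD and 24.4, 18.8 and 27.7% in MEFs. It was 75.6, 77.7 and 68.8% with CP and 78.02, 72.5 and 75.5% with SP. All 9 libraries with F/R/C lay between 68.8 and 82.2%, and the 6 without it between 15.9 and 27.7%. These shares rest on 1303 or more estimated counts for the pair in each library, and they are a description with no test.

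The A tail transcript Itga7-204, an annotated fragment, was at 29.1, 46.8 and 40.1 TPM in MyoD + F/R/C, 12.7, 12.7 and 19.2 TPM in +MyoD and 0.333, 0 and 0.472 TPM in MEFs. Of the summed TPM of the 3 transcripts it was 32.9 ± 2.81% in MyoD + F/R/C, 15.9 ± 4.79% in +MyoD and 1.67 ± 1.47% in MEFs (SD, n = 3 each), with no overlap between these conditions. The β1D transcript Itgb1-204, also a fragment, was at 20.99, 19.3 and 29.4 TPM in MyoD + F/R/C, 3.89, 4.998 and 8.90 TPM in +MyoD and 0.913, 0.724 and 0.766 TPM in MEFs. Of the sum with Itgb1-201 it was 4.71, 5.93 and 6.15% in MyoD + F/R/C, 0.227, 0.416 and 1.17% in +MyoD and 0.102, 0.0628 and 0.0722% in MEFs, so that it stayed at or below 6.64% in all 15 libraries. By comparison, the 130-base exon that separates the A from the B tail of Itga6 had overlapping shares in all conditions, at 44.8 ± 7.64% in MyoD + F/R/C, 44.5 ± 7.82% in +MyoD and 42.9 ± 3.46% in MEFs. The kallisto software divides reads that fit several transcripts, so that transcript levels are estimates. The fragments rest on fewer reads (549, 949 and 837 estimated counts for Itga7-204 and 251, 242 and 398 for Itgb1-204 in MyoD + F/R/C).

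**Figure D3:**
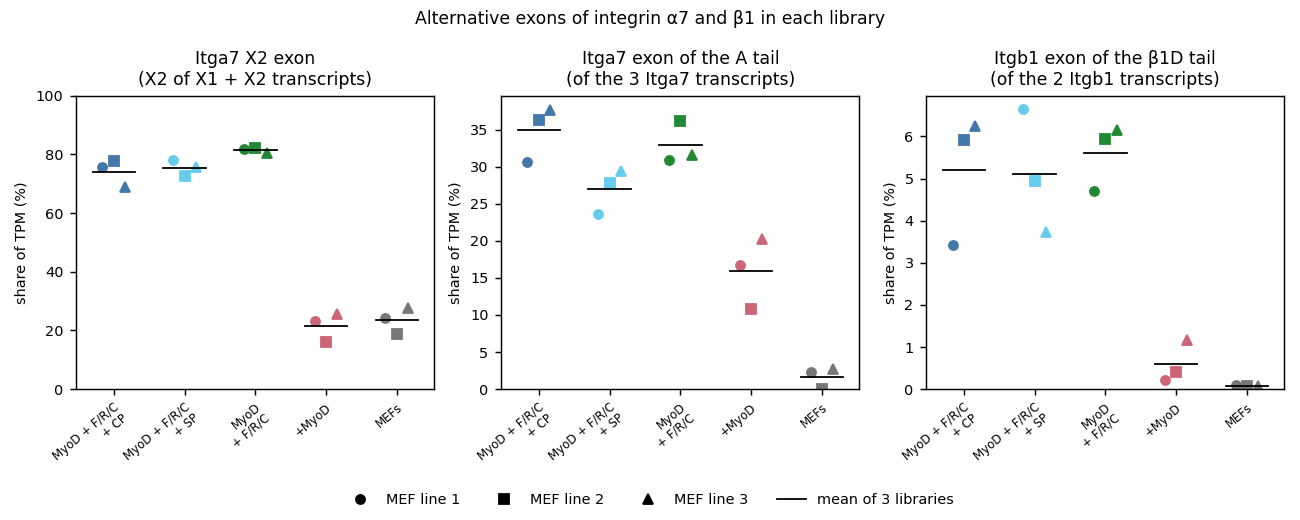
Share of TPM (y axis, %) of transcripts with the X2 exon of Itga7, the A tail exon of Itga7 and the β1D exon of Itgb1 in each library of the 5 conditions (x axis), with a marker for each MEF line and a bar at the mean. The 9 libraries with F/R/C lie between 68.8 and 82.2% for X2, and the 6 others between 15.9 and 27.7%.

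Of the β subunits, Itgb1, the partner of the laminin, collagen and fibronectin receptors, had the highest level in all 15 libraries, and F/R/C lowered it. Itgb1 was at 503, 413 and 542 TPM in MyoD + F/R/C, 1863, 1499 and 906 TPM in +MyoD and 1039.7, 1339 and 1188 TPM in MEFs. MyoD + F/R/C lay below both other conditions (log2FC -1.66, SE 0.22, adjusted p = 9.78e-05 over +MyoD, and log2FC -1.58, SE 0.22, adjusted p = 2.59e-05 over MEFs). The log2FC of +MyoD over MEFs was 0.08 with a 95% interval of -0.38 to 0.55. Itgb5, which pairs with αv to bind vitronectin, was at 145, 197 and 181 TPM in MyoD + F/R/C, 428, 529.7 and 489 TPM in +MyoD and 61.3, 63.5 and 60.6 TPM in MEFs. It was higher in +MyoD than in MEFs (log2FC 2.61, SE 0.16, adjusted p = 1.54e-08). It was lower with F/R/C than with MyoD alone (log2FC -1.53, SE 0.16, adjusted p = 1.03e-05) but still above MEFs (log2FC 1.09, SE 0.15, adjusted p = 2.58e-05). None of the 3 comparisons had an overlap. Of the summed TPM of the β subunits, Itgb5 took 25.4 ± 5.02% in MyoD + F/R/C, 25.96 ± 7.998% in +MyoD and 4.80 ± 0.498% in MEFs. Itgb1 took 70.2 ± 4.76% in MyoD + F/R/C, 71.5 ± 7.95% in +MyoD and 91.5 ± 0.798% in MEFs (SD, n = 3 each).

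Itgb3, the other main vitronectin receptor chain, was at 12.03, 7.52 and 7.78 TPM in MyoD + F/R/C, 30.1, 29.02 and 11.3 TPM in +MyoD and 30.2, 42.1 and 37.3 TPM in MEFs. It was lower with F/R/C than in MEFs (log2FC -2.22, SE 0.32, adjusted p = 3.28e-05). It was also called lower than in +MyoD (log2FC -1.43, SE 0.31, adjusted p = 0.00414), although these libraries overlapped. Over the 6 libraries of MyoD + F/R/C and +MyoD alone the adjusted p was 0.0501. The smaller fall in +MyoD against MEFs (log2FC -0.79, SE 0.31, adjusted p = 0.049) rested on several libraries. It did not hold without MEFs of line 2 (adjusted p = 0.15) or line 3 (0.1), without +MyoD of line 3 (0.16) or without MyoD + F/R/C of line 2 (0.055). Nor did it hold over the 6 libraries of both conditions alone (adjusted p = 0.093) or with counts scaled by transcript length (0.056). Itgb4, the hemidesmosome chain that pairs with Itga6 in epithelia, went against the epithelial list. It was at 7.26, 6.59 and 9.63 TPM in MyoD + F/R/C, 22.8, 9.47 and 15.7 TPM in +MyoD and 1.34, 0.636 and 0.804 TPM in MEFs, with log2FC 4.21, SE 0.22, adjusted p = 4.12e-09 in +MyoD over MEFs and log2FC -1.16, SE 0.19, adjusted p = 0.000502 in MyoD + F/R/C over +MyoD.

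Itgb6, a chain that pairs with αv and activates latent TGF-β, reached 3.63, 4.59 and 6.91 TPM in MyoD + F/R/C and 5.40, 2.28 and 1.35 TPM in +MyoD, against 0.0759, 0.0996 and 0.102 TPM in MEFs. Its log2FC over MEFs was 4.31 in MyoD + F/R/C (adjusted p = 3.19e-07) and 3.63 in +MyoD (adjusted p = 1.95e-06), on 8 to 11 counts per library in MEFs. Itgb8, which also binds latent TGF-β with αv, averaged 3.30 ± 0.868 TPM in MyoD + F/R/C, 2.16 ± 1.58 TPM in +MyoD and 0.296 ± 0.179 TPM in MEFs, and was called higher than in MEFs in both. Itgb7, a chain of lymphocyte integrins, was at 4.82, 3.09 and 3.26 TPM in MyoD + F/R/C, 3.05, 2.11 and 2.01 TPM in +MyoD and 11.97, 4.21 and 11.04 TPM in MEFs. It was called lower than in MEFs both in MyoD + F/R/C (log2FC -1.77) and in +MyoD (log2FC -2.67). A fit blocked on the MEF line also called Itgb7 higher in MyoD + F/R/C than in +MyoD (log2FC 0.94, adjusted p = 0.046 with the block, against 0.90 and 0.14 without it).

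Among the α subunits that recognise the RGD sequence of fibronectin and vitronectin, F/R/C lowered Itga5 and Itgav, while Itga8 rose from MEFs to +MyoD. Itga5, the fibronectin receptor chain, was at 92.1, 94.7 and 116 TPM in MyoD + F/R/C, 494, 495 and 243 TPM in +MyoD and 349, 510.2 and 430.2 TPM in MEFs. The log2FC was -2.19 in MyoD + F/R/C over +MyoD (SE 0.25, adjusted p = 2.30e-05) and -0.19 in +MyoD over MEFs, with a 95% interval of -0.69 to 0.31. Itgav, which pairs with Itgb1, Itgb3, Itgb5, Itgb6 and Itgb8, had the same course, at 49.03, 48.7 and 56.02 TPM in MyoD + F/R/C, 174, 149 and 117 TPM in +MyoD and 129.5, 172 and 153 TPM in MEFs (log2FC -1.77, SE 0.21, adjusted p = 3.37e-05 over +MyoD). For both genes, MyoD + F/R/C overlapped with neither of the other conditions. Without +MyoD of line 1, the log2FC of Itgav in +MyoD over MEFs was -0.56 (adjusted p = 0.0495) and was called, against -0.41 with it.

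Itga8, which binds nephronectin, was at 28.6, 25.8 and 58.9 TPM in MyoD + F/R/C, 20.5, 46.2 and 20.6 TPM in +MyoD and 2.20, 3.79 and 1.76 TPM in MEFs. Every transfected library lay above every MEF library (log2FC 3.87, SE 0.34, adjusted p = 2.81e-07 for MyoD + F/R/C and log2FC 3.60, SE 0.34, adjusted p = 7.16e-07 for +MyoD). The step from +MyoD to MyoD + F/R/C (0.27) was called only without +MyoD of line 2 (0.93, adjusted p = 0.00227). With Itga5 and Itgav lower, the share of Itga8 in the sum of Itga5, Itga8 and Itgav was 16.9, 15.2 and 25.5% in MyoD + F/R/C, 2.98, 6.69 and 5.42% in +MyoD and 0.457, 0.553 and 0.301% in MEFs. This class, called RGD-binding here, leaves out Itga2b. Itga5 stayed the leading subunit of the class on average in all 3 conditions, at 53.5 ± 2.91% in MyoD + F/R/C, 69.1 ± 4.59% in +MyoD and 73.5 ± 0.880% in MEFs (SD, n = 3 each).

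The leading collagen-binding subunit differed between the conditions. Itga2, a receptor for network and fibrillar collagens, was at 3.35, 3.40 and 5.03 TPM in MyoD + F/R/C, 2.29, 0.998 and 1.43 TPM in +MyoD and 7.47, 11.1 and 10.7 TPM in MEFs. It was lower in +MyoD than in MEFs (log2FC -2.75, SE 0.29, adjusted p = 2.08e-06) and in part higher again with F/R/C (log2FC 1.37, SE 0.28, adjusted p = 0.00250). Itga1, a receptor that favours basement membrane collagen, was at 14.8, 12.997 and 14.4 TPM in MyoD + F/R/C, 8.61, 13.9 and 13.3 TPM in +MyoD and 1.36, 1.49 and 0.756 TPM in MEFs. It was higher in each transfected library than in any MEF library (log2FC 3.10, SE 0.21, adjusted p = 3.45e-08 for +MyoD over MEFs).

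Itga11, a fibrillar collagen receptor of fibroblasts, was at 3.10, 11.5 and 3.80 TPM in MyoD + F/R/C, 13.7, 139.9 and 20.05 TPM in +MyoD and 0.905, 1.22 and 0.601 TPM in MEFs. The rise in +MyoD over MEFs (log2FC 5.91, SE 0.88, adjusted p = 5.72e-05) differed most with line 2 and was 4.03 without it. The fall with F/R/C (log2FC -3.36, SE 0.77, adjusted p = 0.00539) was -1.48 without +MyoD of line 2 (adjusted p = 0.047). Over the 6 libraries of both conditions alone the adjusted p was 0.069. Its level in MyoD + F/R/C over MEFs (2.55) was not called without MEFs of line 3 (adjusted p = 0.0501) or without MyoD + F/R/C of line 2 (1.66, adjusted p = 0.09). Itga10, a cartilage collagen receptor, was at 2.12, 4.02 and 5.52 TPM in MyoD + F/R/C, 6.74, 7.43 and 6.19 TPM in +MyoD and 1.25, 0.868 and 1.42 TPM in MEFs, with log2FC 2.60, SE 0.32, adjusted p = 9.88e-06 in +MyoD over MEFs. Its log2FC of -1.15 in MyoD + F/R/C over +MyoD was not called without MyoD + F/R/C of line 1 (adjusted p = 0.078) or with counts scaled by transcript length (log2FC -0.90, adjusted p = 0.13). In shares of the class, Itga1 led in MyoD + F/R/C (51.4 ± 11.4%), Itga11 in +MyoD (59.7 ± 23.2%) and Itga2 in MEFs (74.3 ± 5.83%, SD, n = 3 each). The Itga11 share in +MyoD was 43.8, 86.3 and 48.9% in lines 1, 2 and 3, and Itga11 led in each of them.

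**Figure D4:**
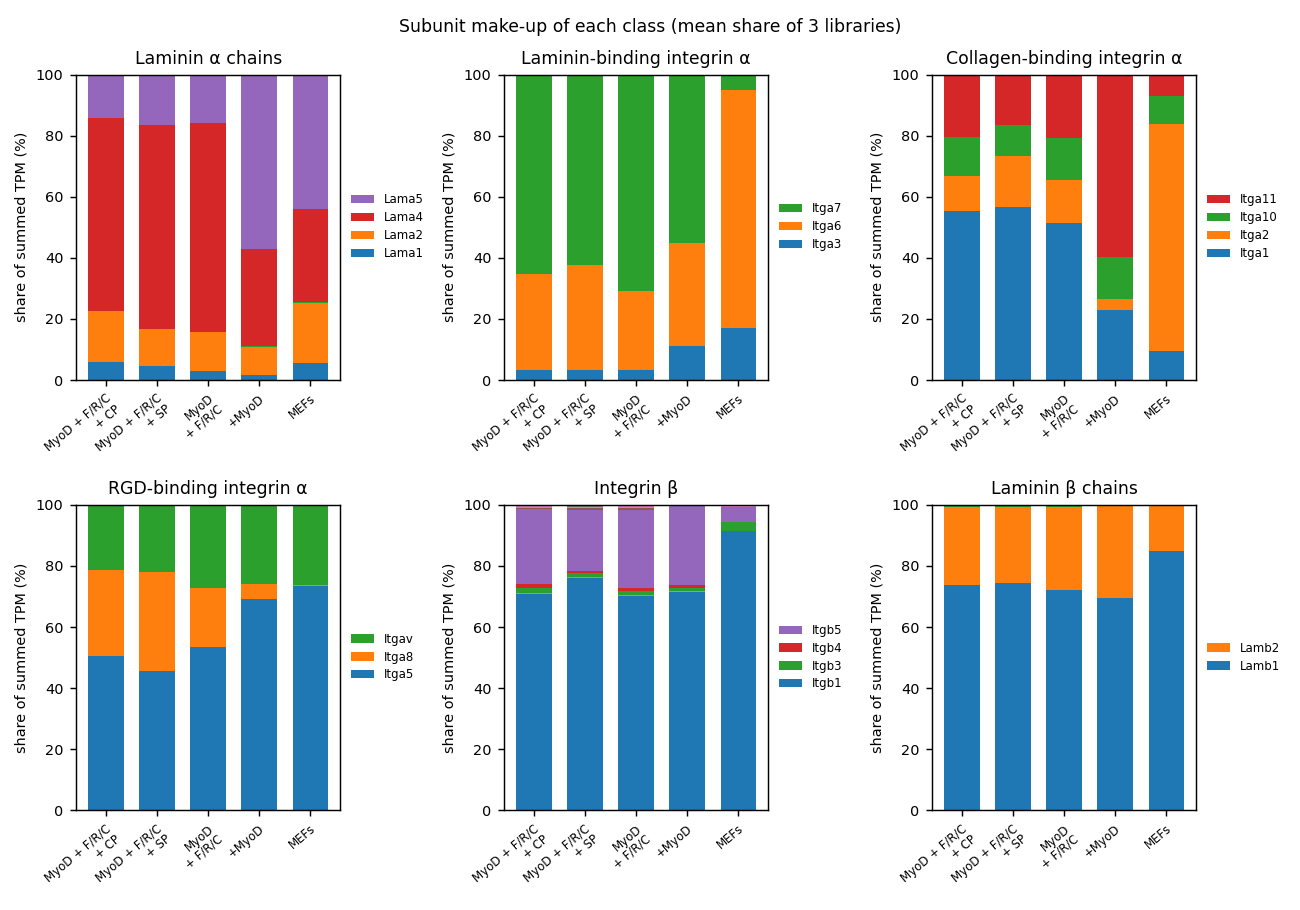
Mean share of the summed TPM (y axis, %, 3 libraries) that each subunit took within 6 classes in the 5 conditions (x axis), with subunits under 1% in every condition drawn but not named. Itga7 took 70.7 ± 8.73% of the laminin-binding class in MyoD + F/R/C and 4.97 ± 0.784% in MEFs, and Lama4 took 68.4 ± 6.98% of the laminin α chains in MyoD + F/R/C and 30.4 ± 13.3% in MEFs (mean ± SD).

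Of the remaining α subunits, Itga4, the Vcam1 and fibronectin receptor that takes part in myoblast contact, rose in both steps. It was at 31.8, 19.8 and 38.3 TPM in MyoD + F/R/C, 13.5, 13.7 and 15.6 TPM in +MyoD and 6.17, 5.34 and 5.62 TPM in MEFs, with no overlap (log2FC 1.14, SE 0.20, adjusted p = 0.000838 over +MyoD, and 1.02 in +MyoD over MEFs). Itga9, a relative of Itga4 that binds tenascin and osteopontin, was at 16.4, 12.2 and 24.8 TPM in MyoD + F/R/C, 8.12, 12.3 and 11.4 TPM in +MyoD and 11.4, 8.22 and 7.23 TPM in MEFs. It was called in MyoD + F/R/C over MEFs (log2FC 0.99, SE 0.23, adjusted p = 0.00186), over +MyoD only without MyoD + F/R/C of line 2 (0.81, against 0.58 with it), and not over MEFs when counts were scaled by transcript length (adjusted p = 0.067). Itga2b, the fibrinogen receptor chain of platelets, was at 13.1, 22.6 and 17.9 TPM in MyoD + F/R/C, 8.73, 14.2 and 12.01 TPM in +MyoD and 5.25, 3.05 and 3.53 TPM in MEFs. Most of this came from transcripts annotated as processed transcripts, and the protein-coding Itga2b-201 averaged 0.662 TPM in MyoD + F/R/C, 1.51 TPM in +MyoD and 0.894 TPM in MEFs. Its call in MyoD + F/R/C over MEFs (0.95) was lost without MEFs of line 1 or 2, or MyoD + F/R/C of line 2 or 3, with adjusted p-values of 0.074 to 0.11.

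The leukocyte integrins were near the limit of detection. Itgad, Itgae, Itgal, Itgam, Itgax and Itgb2 each stayed at or below 2.74 TPM in all 15 libraries. Itgad had 4, 24 and 44 counts in MyoD + F/R/C, 0, 0 and 0 counts in +MyoD and 0, 5 and 0 counts in MEFs. Its mean in MyoD + F/R/C was thus at least 6.14-fold that in +MyoD against a floor of 3 counts per library, although line 1 alone lay close to that floor. The call of Itgad in MyoD + F/R/C over MEFs (3.46, adjusted p = 0.032) held under 15 of 20 alternatives. Itgal had 18, 29 and 23 counts in MyoD + F/R/C, 0, 3 and 0 counts in +MyoD and 32, 13 and 12 counts in MEFs, and was called lower in +MyoD than in MEFs. It was also called higher in MyoD + F/R/C than in +MyoD (4.10, adjusted p = 0.012), but not over the libraries of both conditions alone (adjusted p = 0.068). Itgax had 23, 11 and 53 counts in MyoD + F/R/C and 0, 6 and 0 counts in MEFs, and its call there (adjusted p = 0.047) was lost with the MEF line as a block (adjusted p = 0.1) and held under 7 of 21 alternatives. A list of 11 macrophage and leukocyte markers summed to 29.6 to 54.4 TPM in MyoD + F/R/C, 24.5 to 36.6 TPM in +MyoD and 20.6 to 32.7 TPM in MEFs. Its defining marker Ptprc averaged 0.0494 TPM in MyoD + F/R/C, 0.244 TPM in +MyoD and 0.275 TPM in MEFs.

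Among the ligands, 3 of the 5 laminin α chains (Lama2, Lama4 and Lama5) were higher in +MyoD than in MEFs, and Lama5 alone of them was lower again with F/R/C. Lama4, a chain of vessel, nerve and embryonic muscle basement membranes, was at 90.9, 96.3 and 73.5 TPM in MyoD + F/R/C, 15.8, 99.1 and 62.5 TPM in +MyoD and 3.81, 9.28 and 9.46 TPM in MEFs. It was higher than in MEFs in MyoD + F/R/C (log2FC 3.46, SE 0.50, adjusted p = 3.07e-05) and in +MyoD (log2FC 3.03, SE 0.49, adjusted p = 0.000114), and the second value was 3.49 without line 1 and 2.35 without line 2 of that condition. A list of 7 endothelial markers summed to 16.3 to 40.3 TPM in MyoD + F/R/C, 9.71 to 65.5 TPM in +MyoD and 10.5 to 18.8 TPM in MEFs. A list of 7 Schwann cell and glial markers summed to 34.6 to 49.4 TPM in MyoD + F/R/C, 4.21 to 23.2 TPM in +MyoD and 11.8 to 14.2 TPM in MEFs. Their part in the level of Lama4 was not tested.

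Lama5, a chain of epithelial and mature vessel basement membranes, was at 18.1, 15.8 and 25.9 TPM in MyoD + F/R/C, 35.8, 127 and 133 TPM in +MyoD and 13.1, 10.95 and 8.88 TPM in MEFs. It was higher in +MyoD than in MEFs (log2FC 2.87, SE 0.26, adjusted p = 4.60e-07) and lower again with F/R/C (log2FC -2.52, SE 0.25, adjusted p = 9.87e-06). This left MyoD + F/R/C at a log2FC of 0.35 over MEFs with a 95% interval of -0.16 to 0.87. Without +MyoD of line 1 the log2FC was 3.16 for +MyoD over MEFs and -2.81 for MyoD + F/R/C over +MyoD. Lama2, the chain of mature muscle, was at 15.8, 14.9 and 18.03 TPM in MyoD + F/R/C, 12.3, 11.2 and 9.22 TPM in +MyoD and 6.77, 3.40 and 4.56 TPM in MEFs. It was higher in each transfected library than in any MEF library, with log2FC 1.11, SE 0.21, adjusted p = 0.000471 in +MyoD and log2FC 1.47, SE 0.21, adjusted p = 3.04e-05 in MyoD + F/R/C over MEFs.

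As shares of the summed α chains, Lama4 was 69.8, 74.6 and 60.8% in MyoD + F/R/C, 23.9, 41.4 and 29.9% in +MyoD and 15.1, 36.2 and 39.7% in MEFs. Lama5 was 13.9, 12.2 and 21.4% in MyoD + F/R/C, 54.2, 53.2 and 63.7% in +MyoD and 51.97, 42.8 and 37.3% in MEFs. Lama5 thus led in all 3 +MyoD libraries and Lama4 in all 3 MyoD + F/R/C libraries, with no overlap between the conditions, while in MEFs the leader was Lama5 in lines 1 and 2 and Lama4 in line 3. The share of Lama2 did not increase over MEFs, at 12.9 ± 1.81% in MyoD + F/R/C, 9.22 ± 8.08% in +MyoD and 19.8 ± 6.86% in MEFs (SD, n = 3 each). Its shares in MyoD + F/R/C and +MyoD overlapped. The summed level of the α chains was 127 ± 5.17 TPM in MyoD + F/R/C, 171 ± 92.4 TPM in +MyoD and 24.9 ± 0.924 TPM in MEFs. Lama1, a chain of the early embryo, was low at 5.27, 2.19 and 3.21 TPM in MyoD + F/R/C, 1.76, 1.37 and 3.82 TPM in +MyoD and 1.41, 1.92 and 0.825 TPM in MEFs. It was called higher in MyoD + F/R/C than in MEFs (log2FC 1.75, SE 0.34, adjusted p = 0.000500), and the call over +MyoD (1.20) was lost without MyoD + F/R/C of line 1 (adjusted p = 0.068), over the 6 libraries of both conditions alone (adjusted p = 0.11) and with counts scaled by transcript length (log2FC 0.56, adjusted p = 0.4). In +MyoD over MEFs it was called only without +MyoD of line 2 (0.91, against 0.55 with it). Lama3, the epidermal chain, stayed at or below 0.401 TPM in every library.

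The β and γ chains differed in their courses. Lamb1, the common β chain, averaged 273 ± 21.5 TPM in MyoD + F/R/C, 357 ± 27.2 TPM in +MyoD and 287 ± 36.04 TPM in MEFs (SD, n = 3 each) and was called in none of the comparisons. Its log2FC in MyoD + F/R/C over +MyoD was -0.48 (adjusted p = 0.019), just under the fold threshold, and was called at -0.55 without +MyoD of line 1, -0.51 without +MyoD of line 3 and -0.58 without MyoD + F/R/C of line 2. Lamb2, the β chain of muscle and its synapse, was at 92.2, 123 and 98.6 TPM in MyoD + F/R/C, 126, 202 and 142 TPM in +MyoD and 54.3, 43.8 and 47.9 TPM in MEFs. It was higher in +MyoD than in MEFs (log2FC 1.56, SE 0.21, adjusted p = 2.31e-05) and remained above MEFs with F/R/C (log2FC 1.02, SE 0.21, adjusted p = 0.000679). A fit blocked on the MEF line also called the step from +MyoD to MyoD + F/R/C lower (log2FC -0.52, adjusted p = 0.018 with the block, against -0.53 and 0.08 without it). That step was called as well without +MyoD of line 1 (-0.72) or MyoD + F/R/C of line 2 (-0.75), and with counts scaled by transcript length (-0.66, adjusted p = 0.044). The share of Lamb2 in the β chains was 27.5 ± 1.46% in MyoD + F/R/C, 30.02 ± 3.81% in +MyoD and 14.7 ± 3.03% in MEFs.

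Lamc1, the γ chain of nearly all laminins, was at 75.8, 71.97 and 69.1 TPM in MyoD + F/R/C, 89.1, 131 and 92.99 TPM in +MyoD and 61.3, 74.3 and 56.9 TPM in MEFs. Its rise from MEFs to +MyoD (log2FC 0.59, SE 0.18, adjusted p = 0.012) was lost without +MyoD of line 2 (adjusted p = 0.091) or MEFs of line 3 (0.06). Its fall with F/R/C (log2FC -0.61, SE 0.18, adjusted p = 0.02) was lost without +MyoD of line 2 (adjusted p = 0.11) or MyoD + F/R/C of line 1 (0.053) or line 3 (0.079). Fitted on the 6 libraries compared, neither was called (adjusted p = 0.099 in MyoD + F/R/C over +MyoD and 0.055 in +MyoD over MEFs). Lamb3, a chain of epithelial anchoring laminin, was at 1.90, 2.61 and 1.76 TPM in MyoD + F/R/C, 5.09, 0.183 and 0.337 TPM in +MyoD and 0.541, 1.07 and 1.47 TPM in MEFs. The calls of Lamb3 (-1.53 in +MyoD over MEFs and 1.75 in MyoD + F/R/C over +MyoD) did not hold with the MEF line as a block (adjusted p = 0.075 for +MyoD over MEFs and 0.065 for MyoD + F/R/C over +MyoD). Each held under 14 of 21 alternatives, and the mean TPM of +MyoD lay above that of MEFs where the counts gave a fall. Lamc3 stayed at or below 3.38 TPM and was not called.

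Adding a JNK or a JAK inhibitor to F/R/C changed no integrin or laminin gene past the threshold. With SP over MyoD + F/R/C, 0 members were called higher and 0 lower by edgeR and by DESeq2. Over all genes, edgeR called 0% in either direction, and the genes called by DESeq2 were not counted. In the edgeR fit, 5 of 37 members and 1280 of 19331 genes had an unadjusted p under 0.05. With CP over MyoD + F/R/C, 0 members were called in either direction by both tools, and edgeR called 0% of all genes higher and 0.0362% lower. Here 3 of 37 members and 1529 of 19331 genes had an unadjusted p under 0.05. Between CP and SP, 0 members were called by both tools, and edgeR called 0% of all genes higher and 0.197% lower. The unadjusted p was under 0.05 for 1 of 37 members and 775 of 19331 genes. In the 9 libraries with F/R/C, Itga7 lay between 75.3 and 160.1 TPM and Lama4 between 73.5 and 101.7 TPM. Itga7 led the laminin-binding subunits in 8 of them, and in line 1 with SP it took 46.6%, against 49.8% for Itga6.

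Some members differed between these conditions without passing the test. Itga8 was at 56.1, 51.2 and 53.9 TPM with CP, 74.7, 48.2 and 81.3 TPM with SP and 28.6, 25.8 and 58.9 TPM in MyoD + F/R/C. The log2FC over MyoD + F/R/C was 0.76 with CP (95% interval 0.11 to 1.40, adjusted p = 0.54) and 0.91 with SP (95% interval 0.26 to 1.55, adjusted p = 0.67). The share of Itga8 in the RGD-binding class, at 30.7, 26.7 and 26.7% with CP and 37.6, 25.7 and 33.7% with SP, overlapped with MyoD + F/R/C in neither case, which is the floor of the exact test. Lama2 was at 27.3, 24.6 and 21.2 TPM with CP, against 15.8, 14.9 and 18.03 TPM in MyoD + F/R/C (log2FC 0.61, SE 0.21, adjusted p = 0.4), and Lama1 was at 8.43, 8.52 and 8.70 TPM with CP, against 5.27, 2.19 and 3.21 TPM in MyoD + F/R/C (log2FC 0.85, SE 0.33, adjusted p = 0.52). In both genes every CP library lay above every MyoD + F/R/C library. Other members separated too when counts were scaled for library size. Itga2 (log2FC -0.58), Itgax (-2.37) and Lamb1 (-0.29) were lower in every CP library than in any MyoD + F/R/C library, and Lamc1 (0.24) was higher. On the same scale SP separated members besides Itga8 as well. Lama1, Itga3 and Itgb7 were higher and Lamb2 and Itgax lower in every SP library than in any MyoD + F/R/C library. None of these was called, and how many genes of the whole series separate in this way was not computed.

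The proteins that integrins and laminins work with gave lists with differing courses. Of 25 adaptors that link integrins to actin, 2 were higher and 14 lower in MyoD + F/R/C than in +MyoD, beside 10.9% and 8.39% of all genes. In +MyoD over MEFs, 4 were higher and 7 lower, beside 22.8% and 18%, with a median log2FC of -0.31 beside 0.12 over all genes. Their median log2FC in MyoD + F/R/C over +MyoD was -0.65, beside 0.03 over all genes. Itgb1bp2, which codes for melusin, a muscle protein that binds the β1 tail, averaged 85.8 TPM in MyoD + F/R/C, 26.5 TPM in +MyoD and 0.830 TPM in MEFs. Its log2FC was 1.68 for MyoD + F/R/C over +MyoD and 5.06 for +MyoD over MEFs. Tln2, the talin of muscle attachments, was the other adaptor higher with F/R/C (0.56), while vinculin (Vcl, -1.73) and Lims2 (-1.68) fell most. In +MyoD over MEFs the extremes were Tns2 (2.26) next to Itgb1bp2 on the high side, and kindlin-2 (Fermt2, -1.02) and zyxin (Zyx, -1.02) on the low side.

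Of 16 tested matrix ligands of integrins, 10 were higher and 1 lower in +MyoD than in MEFs, beside 22.8% and 18% of all genes. In MyoD + F/R/C over +MyoD, 3 were higher and 8 lower, beside 10.9% and 8.39%. The median log2FC was 1.40 and -0.75 in this order, beside 0.12 and 0.03 over all genes. Fibronectin (Fn1), the ligand of Itga5, averaged 708 TPM in MyoD + F/R/C, 3271 TPM in +MyoD and 911 TPM in MEFs. Its log2FC was -2.33 in MyoD + F/R/C over +MyoD, and that of thrombospondin-1 (Thbs1) was -2.77. Nephronectin (Npnt), the ligand of Itga8, was the only ligand lower in +MyoD (-1.05) and rose with F/R/C (1.40). Egfl6 and Tnn had the highest log2FC in +MyoD over MEFs, at 6.40 and 6.16, both under 0.1 TPM on average in MEFs.

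Of 18 basement membrane partners and other laminin receptors, 15 were higher and 0 lower in +MyoD than in MEFs, beside 22.8% and 18% of all genes. In MyoD + F/R/C over +MyoD, 4 were higher and 6 lower, beside 10.9% and 8.39%. The median log2FC was 1.22 and -0.41 in this order, beside 0.12 and 0.03 over all genes. Sgca, a sarcoglycan of muscle, averaged 31.9 TPM in MyoD + F/R/C, 7.89 TPM in +MyoD and 0.152 TPM in MEFs. Col15a1, a collagen at the outer side of basement membranes, had a log2FC of 4.19 in +MyoD over MEFs. Bcam, a receptor for the Lama5 chain, rose with F/R/C (1.70 over +MyoD) while Lama5 fell. On the low side of that comparison were Col4a5 (-2.59) and perlecan (Hspg2, -1.10).

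MyoD binds E-boxes, whose letters are CANNTG, so the promoters of the members were searched for them. RefSeq promoter sequences of GRCm38.p6, from 250 bases before to 50 after the start, were matched for 23 of the 37 members by symbol and gave 26 promoters. Itga7, Itga6, Itgb4, Lama4 and Lamc1 were among the members with no match, and the search covered 12 of the 16 members called higher in +MyoD than in MEFs. Of the 26 promoters, 22 held CANNTG (84.6%) and 8 held CAGCTG (30.8%), an E-box that CANNTG includes, beside 72.3% and 16.3% of 32851 promoters of the same length. Both motifs read the same on either strand. Among the 13 promoters of members called higher in +MyoD than in MEFs, 12 held CANNTG and 4 held CAGCTG, and among the 6 of members called lower, 5 and 1 did. Of the 7 promoters of members not called, 5 held CANNTG and 3 held CAGCTG (42.9%), a higher share for CAGCTG than the 30.8% among members called higher. These matches are a description of the letters in a short window.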

How the data were processed

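RNA of 15 cultures (5 conditions, 3 MEF lines each) was measured by poly-A RNA-seq. Per the labels and the study's methods, the authors used a stranded kit, read each fragment from 1 end, removed adapters with fastp 0.20.0 and quantified transcripts of GRCm38.p6 with kallisto 0.46.1. The deposited estimated counts carry no normalization, and a read that fits several transcripts is split over them. The deposited TPM values were divided by effective transcript length and scaled per library by the authors' kallisto run.

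Of 121843 transcripts, 121104 matched GENCODE M21 (GRCm38) by identifier. The other 739, with 0.236 to 0.327% of the counts of a library, were left out. Counts were summed per gene and rounded, and edgeR 4.0.16 in R 4.3.3 (glmQLFit and glmQLFTest, TMM, filterByExpr with minimum count 10 and minimum total 15) was fitted once to the 15 libraries with a term for condition alone. It kept 19331 genes, over which p-values were Benjamini-Hochberg adjusted. Fold changes are per summed count and shares per TPM, so the 2 scales can differ. Subunit shares were compared with a two-sided exact permutation test. The edgeR fit, not the permutation test, was also run on simulated counts that had the same spread in every condition. Same-numbered libraries come from the same MEF line, and all 15 libraries correlated best with their own line after removal of the group means (mean r 0.0737 over 30 pairs, against -0.0368 over 60 pairs of other lines). No 2 replicates agreed within sampling noise. Figures were drawn with matplotlib 3.10.9 in Python 3.11.15.

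Alternatives were DESeq2 1.42.0, size factors of DESeq2 in edgeR, no filter, counts scaled by transcript length, the MEF line as a block, only the libraries compared, leaving out each library, and CPM for TPM in shares. A fit of the 9 libraries with F/R/C was added after the data were seen. Levels per library are given for members with a mean of at least 5 TPM in 1 condition and a call in 1 comparison, and for Itgb1, Itga7 and Lama2, and other members are given where a call depends on 1 library or on few counts. Adhesion partners are named where they had the 2 highest or 2 lowest log2FC among those called. The values of 1 member are not reported here, although it is included in the counts of members. Members and lists were chosen with earlier results of these data known. Counting intervals were not computed, and the replicate spread includes counting error.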

Additional observations from a re-analysis of the deposited data

How the results depend on the processing

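Of the members called, 20 of 24 in +MyoD over MEFs, 9 of 17 in MyoD + F/R/C over +MyoD and 22 of 27 in MyoD + F/R/C over MEFs kept their call under all 21 alternatives, and 1 turned its direction: Lamb3 in +MyoD over MEFs was 0.65 with counts scaled by transcript length. Itgad, called in MyoD + F/R/C over +MyoD, could not be fitted over the 6 libraries of both conditions and kept its call under the 20 others. Over the 6 libraries of both conditions, 2 members in place of 6 were called higher in MyoD + F/R/C over +MyoD. With the MEF line as a block, 16 members were higher and 7 lower in +MyoD over MEFs, 6 higher and 12 lower in MyoD + F/R/C over +MyoD, and 17 higher and 9 lower in MyoD + F/R/C over MEFs, and the block changed no call beside those of Itgax, Itgb7, Lamb2 and Lamb3 given with the results. For the fits of 6 libraries and with the block, the shares over all genes were not computed. On CPM in place of TPM, the share of Itgb5 differed by 13.7 percentage points between MyoD + F/R/C and MEFs in place of 20.6, and the cause was not tested. With 3 libraries a group, the spread of +MyoD limits what can be said of Itga11, Lama4, Lama5 and Itga6, and members under about 1 TPM rest on few counts.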
